A study of Mus musculus with 10 samples.

Results

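This section describes 7 genes for fatty acid desaturases and elongases, Scd1, Fads1, Fads2, Elovl1, Elovl5, Elovl6 and Elovl7, among 22180 genes measured in mouse jejunum. Each was the single gene symbol of 1 probe set, so all 7 of 7 were found and none was chosen among several probe sets. They were chosen with the knockout against control results of these same arrays in view. Their differences between the groups are therefore given as a description, and limma counts among them are not read as a test.

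RNA came from the jejunum of female mice aged 10 to 12 weeks, in 10 samples with 1 Affymetrix whole-transcript array each. The 5 knockout samples were Pcyt1aLoxP/LoxP;VilCreERT2, in which tamoxifen switches on a Cre recombinase under the promoter of villin, a gene of the gut epithelium. The 5 controls were Pcyt1aLoxP/LoxP without the Cre, and both groups had 5 days of tamoxifen, 4 days on a diet rich in fat and an overnight fast. The series text speaks of a re-feeding that no sample label mentions, and the source label of the controls repeats the words used for the knockouts, so groups follow titles and genotypes. Villin is not expressed in muscle, stroma, vessels or immune cells, which keep Pcyt1a. Pcyt1a, the rate-limiting enzyme of phosphatidylcholine synthesis from CDP-choline, was at 7.46 ± 0.25 in knockouts and 9.39 ± 0.17 in controls (mean log2 intensity ± SD, n = 5 each; log2 difference -1.93, limma adjusted p = 9.58e-05). Whether each sample is a different mouse is not stated in the labels. The p-values therefore reflect only how these samples vary, which may be technical in part. Depth has no meaning for arrays, and their number limits the precision.

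Desaturases place double bonds in fatty acyl chains, and elongases catalyse the first, rate-limiting step of the cycle that lengthens them in the endoplasmic reticulum. Scd1 makes oleate and palmitoleate from saturated chains. Fads2 and Fads1 act in turn, with Elovl5 between them, to convert the dietary linoleate and alpha-linolenate into arachidonate and other long polyunsaturated chains. The enterocyte uses all of these products for the phospholipids of its membranes and of chylomicrons, and Scd1, Fads1, Fads2 and Elovl6 are well-known targets of the transcription factor SREBP1.

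Stretches upstream of 4 of these genes are printed because Fads2 with Elovl5, and Elovl1 with Elovl7, were the most alike pairs among arrays of the same group (values further on). RefSeq promoter windows on GRCm38.p6 were matched for 5 of the 7 genes, all except Scd1 and Fads1. The 200 bases before the annotated start of transcription are given from 5′ to 3′ on the gene's strand, and capitals mark matches on either strand of 3 motifs: CCAAT, then GGGCGG, and also CACGTG. Elovl1 has 2 windows in the table, and the first is shown.
Fads2 (chr19:10101504-10101703, minus strand): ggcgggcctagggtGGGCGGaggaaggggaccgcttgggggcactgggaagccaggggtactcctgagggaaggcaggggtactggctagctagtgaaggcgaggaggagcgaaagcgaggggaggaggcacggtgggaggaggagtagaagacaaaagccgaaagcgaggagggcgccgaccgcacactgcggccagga
Elovl5 (chr9:77917165-77917364, plus strand): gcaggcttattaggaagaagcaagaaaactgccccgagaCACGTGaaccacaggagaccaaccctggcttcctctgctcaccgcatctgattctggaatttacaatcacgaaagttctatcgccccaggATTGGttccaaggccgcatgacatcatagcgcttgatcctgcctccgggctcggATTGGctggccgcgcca
Elovl1 (chr4:118427893-118428092, plus strand): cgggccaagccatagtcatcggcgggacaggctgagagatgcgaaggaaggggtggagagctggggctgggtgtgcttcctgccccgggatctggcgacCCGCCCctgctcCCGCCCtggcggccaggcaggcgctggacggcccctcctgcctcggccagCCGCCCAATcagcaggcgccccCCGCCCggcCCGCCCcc
Elovl7 (chr13:108214204-108214403, plus strand): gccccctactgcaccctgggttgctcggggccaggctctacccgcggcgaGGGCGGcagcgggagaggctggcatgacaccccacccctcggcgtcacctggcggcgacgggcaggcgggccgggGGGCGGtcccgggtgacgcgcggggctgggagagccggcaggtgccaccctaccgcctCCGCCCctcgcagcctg
The Elovl5 stretch held 2 matches of CCAAT, the motif of the factor NF-Y, and 1 of CACGTG, the E-box, with none of GGGCGG, the GC box of Sp1. The Fads2 stretch held 1 GGGCGG and neither of the other motifs. The Elovl7 stretch held 3 GGGCGG, and the Elovl1 stretch held 5 GGGCGG and 1 CCAAT that overlaps a GGGCGG match. Among all 32851 RefSeq windows, 33.8% held CCAAT, 32.7% GGGCGG and 6.02% CACGTG in the 250 bases before the start. The sterol regulatory element core TCACNCCAC was in none of the windows of these 5 genes over the same 250 bases, against 1.05% of all windows. These letter matches are descriptions of the windows and do not show that a factor binds.

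Scd1, which makes monounsaturated chains, showed the largest difference of the 7 genes. Its log2 intensity was 9.12, 9.89, 9.11, 10.41 and 9.14 on knockouts 1 to 5, and 7.95, 8.36, 8.62, 7.69 and 6.52 on controls 6 to 10. Every knockout lay above every control, with knockouts 4 and 2 apart at the top and control 10 far below the other controls. The means were 9.53 ± 0.59 and 7.83 ± 0.81 (SD, n = 5 each), a log2 difference of 1.71 (SE 0.37, 95% interval 0.89 to 2.52), or 3.26-fold. Without control 10 the difference was 1.38, and with any other single array left out it reached at most 1.90. In bulk tissue, more RNA per cell and more cells that hold the RNA cannot be told apart, here or for the other genes.

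Adipocytes are rich in Scd1, and their markers were therefore measured on the same arrays. Of the 12 adipocyte markers 11 were measured, and their score, the mean log2 intensity of the list, ran from 6.00 to 6.26 in knockouts and 5.93 to 6.29 in controls. The defining hormone gene Adipoq lay between 3.48 and 4.11 in knockouts and between 3.38 and 4.13 in controls. The fat droplet coat gene Plin1 was at 5.20 to 5.51 in knockouts and 5.31 to 5.77 in controls. No value of Adipoq or Plin1 exceeded 5.77, the lowest of the array medians, which limits what they can show. Lep reached at most 5.15 and Retn at most 5.68 on any array. The brightest marker of the list was Cidec, at a mean of 9.9. The low values of Adipoq, Plin1, Lep and Retn limit the score as a measure of adipocytes. Plin4 was 7.35 on control 7 and 5.14 to 5.75 on the other arrays. Car3 was 7.62 on control 8 and 5.00 to 5.80 on the others. Controls 8 and 7 had the highest Scd1 among controls. On controls 7 and 8, Adipoq was 3.88 and 3.67 and Plin1 5.39 and 5.37, within the span of the other controls. Cidec was 9.54 on control 7, the lowest of the controls, and 10.01 on control 8. Control 7 also had the highest smooth muscle score of all arrays, 10.70. Among the 11, Fabp4 and Lpl, which endothelium and macrophages also express, were the 2 with an unadjusted limma p under 0.05, and both had higher means in knockouts (Fabp4 by 0.81 and Lpl by 0.47 on the log2 scale, limma adjusted p = 0.184 and 0.277). Lpl lay between 4.31 and 5.49, below the median of every array, which limits what it can show too. The blood endothelium score, from 6 of 6 markers, ran from 6.36 to 7.15 in knockouts and from 5.52 to 6.5 in controls. The macrophage score, from 8 of 8 markers, ran from 6.97 to 7.73 and from 6.61 to 7.20. In the endothelium and in the macrophage list, 4 markers were higher at an unadjusted limma p under 0.05 (8.29% of all genes), with 0 passing after adjustment.

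Among arrays of the same group, with group means taken off, Scd1 had positive correlations with all 3 scores, none of which passed adjustment over the 140 relations computed. With the adipocyte score r was 0.66 (exact permutation p = 0.0631, adjusted 0.239; rho = 0.65, exact permutation p = 0.0557, adjusted 0.211) and 0.69 without knockout 4 and control 10. With the macrophage score r was 0.60 (exact permutation p = 0.0837, adjusted 0.272; rho = 0.53, exact permutation p = 0.152, adjusted 0.401) and 0.76 without the same arrays. With the blood endothelium score r was 0.53 (exact permutation p = 0.163, adjusted 0.42; rho = 0.53, exact permutation p = 0.143, adjusted 0.394) and 0.66 without them. The part of these cells in the Scd1 difference was not tested.

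**Figure D1:**
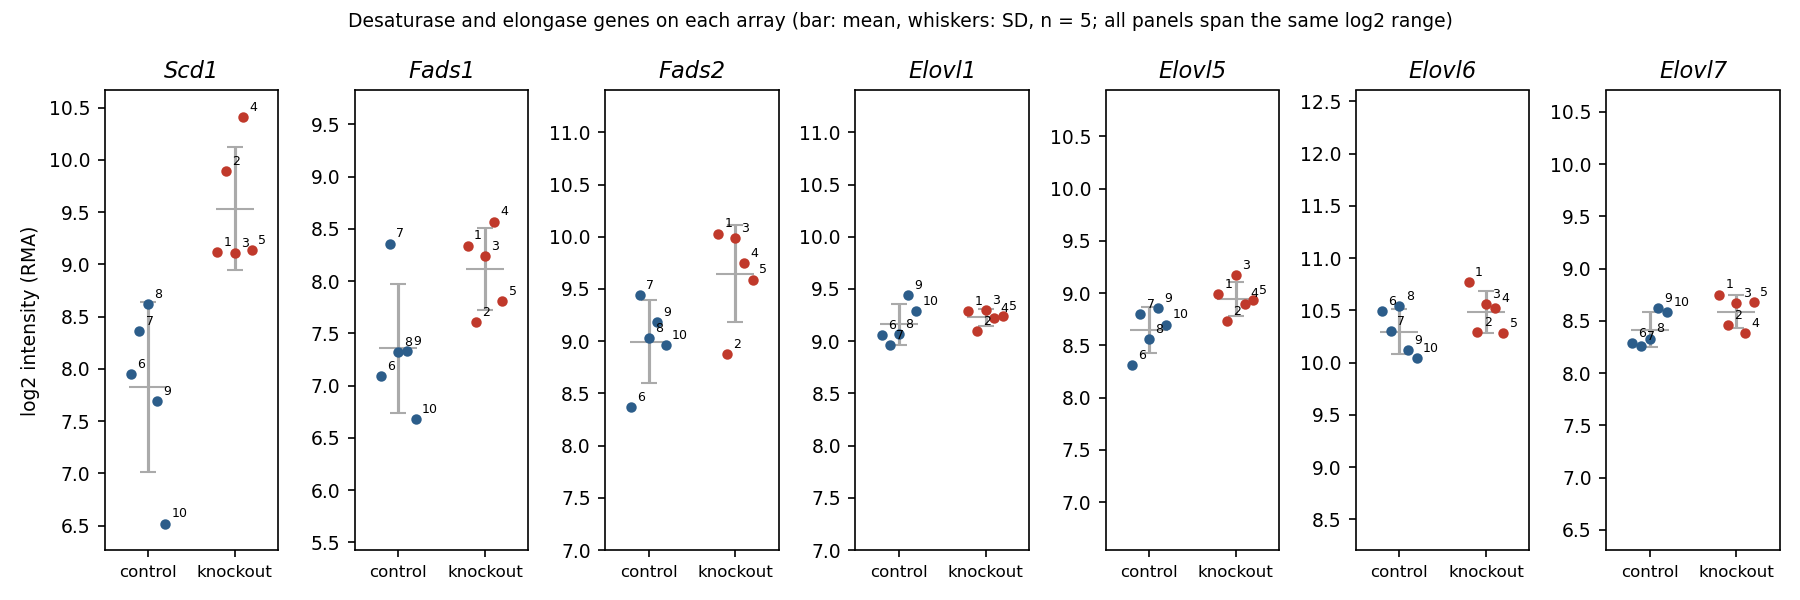
Log2 RMA intensity (vertical axis) of the 7 genes on each array, control in blue and knockout in red, with the array number beside each point, the group mean as a bar and the SD as whiskers (n = 5 per group). The Scd1 groups do not overlap, while knockout 2 lies among the controls for Fads2 and control 7 lies among the knockouts for Fads1.

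The genes of polyunsaturated chain synthesis were higher in most knockouts, with overlap between the groups. Fads2, which performs the first desaturation of linoleate, read 10.03, 8.88, 9.99, 9.75 and 9.59 on knockouts 1 to 5 and 8.37, 9.44, 9.03, 9.18 and 8.96 on controls 6 to 10. Of the knockouts 4 lay above the highest control, and knockout 2 lay below all controls but control 6. The means were 9.65 ± 0.47 and 9.00 ± 0.40 (SD, n = 5 each), a log2 difference of 0.65 (SE 0.23, 95% interval 0.14 to 1.16). Fads1, which makes arachidonate in the later desaturation, read 8.34, 7.61, 8.24, 8.57 and 7.81 on the knockouts and 7.09, 8.36, 7.32, 7.33 and 6.68 on the controls. Here control 7 was above all knockouts but knockout 4, and the other 4 controls lay below every knockout. The log2 difference of Fads1 was 0.76 (SE 0.28, 95% interval 0.15 to 1.36), and 1.01 without control 7. Control 7 had the highest smooth muscle score of all arrays, 10.70, against 6.38 to 9.39 on the other controls, and the highest fibroblast score among controls, 8.05. With the smooth muscle score as a covariate the Fads1 difference was 0.92 (SE 0.21), and with the enterocyte score it was 0.54 (SE 0.23). The mean fibroblast score was higher in knockouts by 0.35. Of its 7 markers, 4 were higher and 0 lower at an unadjusted limma p under 0.05 (8.29% and 5.56% of all genes). After adjustment 0 passed. Within groups, Fads1 had r = 0.70 with the smooth muscle score (exact permutation p = 0.0478, adjusted 0.211 over 140 relations; rho = 0.50, exact permutation p = 0.177, adjusted 0.442) and 0.22 without controls 7 and 10. With the fibroblast score r was 0.72 (exact permutation p = 0.0483, adjusted 0.211) and 0.31 without those arrays. The rho was 0.68 (exact permutation p = 0.0439, adjusted 0.186). With the crypt stem cell score r was 0.69 (exact permutation p = 0.0578, adjusted 0.231) and 0.73 without those arrays. The rho was 0.78 (exact permutation p = 0.00826, adjusted 0.0964). With the enterocyte score r was -0.68 (exact permutation p = 0.0286, adjusted 0.16) and -0.78 without those arrays. The rho was -0.75 (exact permutation p = 0.0262, adjusted 0.147). No relation of Fads1 passed adjustment.

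Elovl5, the elongase between these desaturases, read 8.99, 8.73, 9.17, 8.90 and 8.93 on the knockouts and 8.31, 8.80, 8.56, 8.86 and 8.70 on the controls. Again 4 knockouts exceeded the highest control and knockout 2 did not, and the log2 difference was 0.30 (SE 0.12, 95% interval 0.04 to 0.56).

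The elongases of saturated and monounsaturated chains differed little between the groups. Elovl6, which extends palmitate to stearate, read 10.77, 10.29, 10.56, 10.52 and 10.28 on knockouts and 10.49, 10.30, 10.54, 10.12 and 10.04 on controls. The ranges were largely shared, and the log2 difference was 0.19 (SE 0.13, 95% interval -0.09 to 0.47). Elovl7, an elongase of long-chain acyl groups, read 8.75, 8.46, 8.67, 8.38 and 8.68 on knockouts and 8.29, 8.26, 8.33, 8.62 and 8.58 on controls, a log2 difference of 0.17 (SE 0.11, 95% interval -0.06 to 0.41). Elovl1, which makes the very long saturated chains found in sphingolipids, read 9.29, 9.10, 9.30, 9.22 and 9.24 on knockouts and 9.06, 8.96, 9.07, 9.44 and 9.29 on controls, a log2 difference of 0.07 (SE 0.10, 95% interval -0.16 to 0.29). No knockout exceeded the highest control for Elovl1, while 2 did for Elovl6 and 3 for Elovl7. The Elovl6 difference was 0.11 without knockout 1, and that of Elovl1 was 0.02 without control 7 and 0.14 without control 9. These 3 intervals include 0 and leave room for log2 differences of up to 0.47, 0.41 and 0.29.

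All 7 log2 differences were above 0, as were those of 46.8% of all 22180 genes, and their median was 0.30 against -0.01. By limma, 0 of the 7 had an adjusted p under 0.05, a threshold that 0.0271% of all genes met (0.00451% in the higher and 0.0225% in the lower direction). With an unadjusted p under 0.05, 4 of 7 were higher, as were 8.29% of all genes, with 5.56% lower and 13.9% in either direction. The groups failed to overlap for 1 of 7, Scd1, and in that direction for 1.64% of all genes (0.965% in the other direction and 2.6% in either). The count of 0 adjusted calls among the 7 was 1 in 3 other fits, namely Scd1 with the Paneth or the distal covariate (1.42% and 0.0902% of all genes called) and Fads2 without knockout 2 and control 6 (1.47%). The distal fit and the one without knockout 2 and control 6 were added after the data were seen. Scd1 ran against the distal score within groups (r = -0.86), and knockout 2 and control 6 had the lowest Fads2 of their groups. Because the genes were chosen on this contrast, nothing is read from these counts or shares. Without knockout 2 the groups also failed to overlap for Fads2 and Elovl5, making 3 of 7 (5.67% of all genes in that fit), and without control 7 for Scd1 and Fads1 (2.49%). Mean levels of all 7 were above both intensity limits tried, a log2 value of 5 and of 6. Among genes passing these limits, the groups failed to overlap in the higher direction for 2.28% and 2.99%. The median differences of those genes were 0.01 and 0.034.

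The other desaturases and elongases, which the choice of the 7 did not include, gave mixed values. Of 10 listed genes 9 were measured singly, 0 passed the limma threshold after adjustment over all genes, and 3 had positive and 6 negative differences, with a median of -0.02. Fads3, which lies next to Fads2 in the Fads cluster on chromosome 19 of the RefSeq gene table, read 7.27, 6.66, 7.06, 6.99 and 6.54 on knockouts and 6.03, 6.88, 6.05, 6.31 and 6.05 on controls. As for Fads1, control 7, the array highest in smooth muscle markers, alone among the controls reached the knockout range. Its log2 difference was 0.64 (SE 0.18, limma adjusted p = 0.182). Elovl2, another elongase of polyunsaturated chains, was lower in knockouts by -0.24 (SE 0.10, limma adjusted p = 0.333) at a mean log2 level of 6.10. Scd3 and Scd4, the Scd1 relatives measured here, were at -0.10 (SE 0.14) and -0.15 (SE 0.14). Their mean log2 levels, 4.74 and 4.33, lay below the median of every array (5.77 to 5.89). The difference between Scd1 and these relatives was not tested. Degs1, which places the double bond of ceramide, and its relative Degs2 were at -0.15 (SE 0.14) and 0.03 (SE 0.09). Fads6, Elovl3 and Elovl4, an elongase of very long polyunsaturated chains, lay between -0.02 and 0.07.

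**Figure D2:**
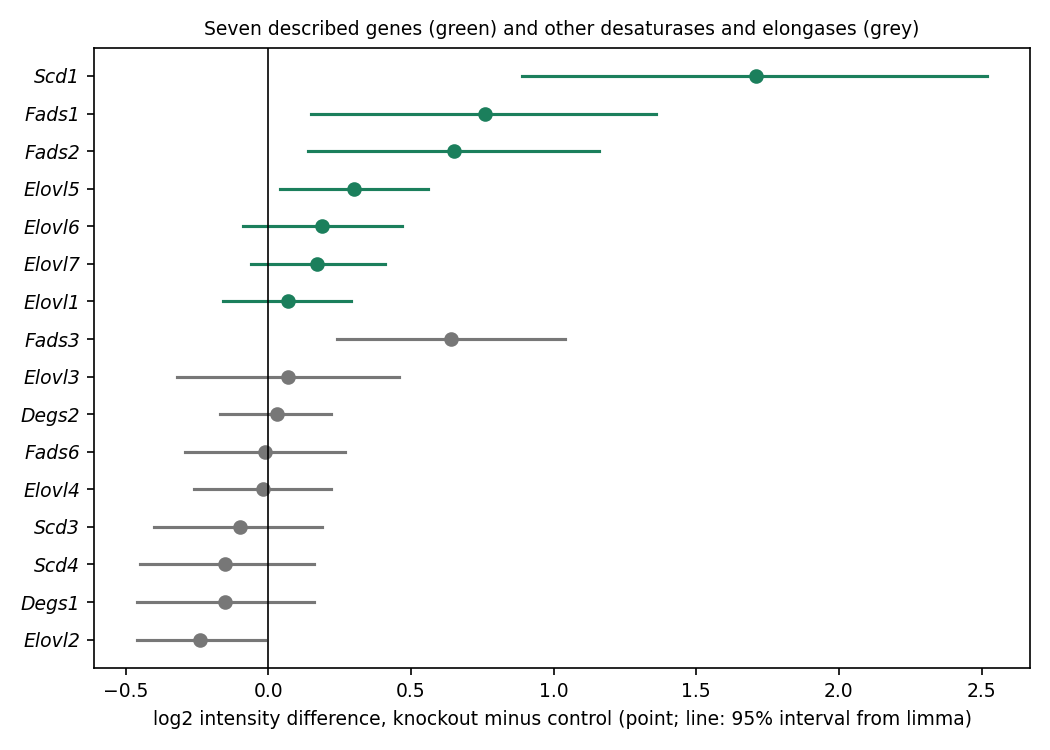
Difference in log2 intensity, knockout minus control (horizontal axis), for the 7 described genes in green and the 9 other measured desaturases and elongases in grey. Points are limma estimates and lines their 95% intervals, and Fads3 sits near Fads1 and Fads2 while the other grey points lie between -0.24 and 0.07.

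Elongases hand their product to further enzymes of the cycle, and most of these partners had positive differences. Of 7 measured, 6 were positive (46.8% of all genes), 3 had an unadjusted limma p under 0.05 and 0 passed after adjustment. The list median was 0.27, against -0.01 over all genes, and the unadjusted share over all genes in that direction was 8.29%. Hsd17b12, the ketoacyl-CoA reductase, read 9.43, 8.80, 9.30, 9.11 and 9.03 on knockouts and 8.64, 8.64, 8.76, 8.79 and 8.78 on controls. The groups did not overlap, as for 1.64% of all genes in that direction, though knockout 2 was only just above control 9. The log2 difference was 0.41 (SE 0.11, limma adjusted p = 0.170). The dehydratases Hacd2 and Hacd3 were at 0.27 (SE 0.11) and 0.32 (SE 0.11), and the last enzyme of the cycle, Tecr, at 0.22 (SE 0.11), with limma adjusted p-values of 0.320, 0.211 and 0.378. Tecrl, a relative of Tecr, was at -0.17 (SE 0.10), with low mean log2 levels of 2.85 in knockouts and 3.02 in controls.

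Desaturases draw electrons from cytochrome b5 and its reductase. Of the 6 genes of that list 0 passed after adjustment and 1 was higher at an unadjusted limma p under 0.05 (8.29% of all genes). This was Cyb5r1, a reductase family member, at 0.36 (SE 0.13, limma adjusted p = 0.237). Cyb5a, Cyb5b and the main reductase Cyb5r3 were at -0.07 (SE 0.08), 0.12 (SE 0.13) and 0.03 (SE 0.10). The list median was 0.06.

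The 9 genes that supply malonyl-CoA and palmitate all had positive differences, as had 46.8% of all genes, with a median of 0.24. After adjustment 0 passed, and 2 of 9 were higher at an unadjusted limma p under 0.05, against 8.29% of all genes. Acaca, which makes malonyl-CoA for the elongases and for fatty acid synthase, was at 0.35 (SE 0.13, adjusted p = 0.262). Fasn, the synthase itself, was at 0.39 (SE 0.19, adjusted p = 0.381), and Acly, which makes cytosolic acetyl-CoA, at 0.24 (SE 0.12, adjusted p = 0.410). For Fasn 4 of 5 knockouts lay above the highest control, and knockout 2, at 7.57, lay below the lowest control. Me1, which provides NADPH, had the highest difference of the list, 0.56 (SE 0.32, adjusted p = 0.465), and Slc25a1, the mitochondrial citrate carrier, the lowest, 0.10 (SE 0.07).

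Among 16 measured regulators of the family 0 passed after adjustment, and 2 were higher and 1 lower at an unadjusted limma p under 0.05 (8.29% and 5.56% of all genes), with a median of 0.06. Srebf1, which encodes SREBP1, had the same mean log2 intensity of 8.21 in both groups (SD 0.17 in knockouts and 0.27 in controls), a log2 difference of 0.00 (SE 0.13, 95% interval -0.30 to 0.29). Mbtps2, the membrane protease that releases SREBPs, read 7.37, 7.01, 7.48, 7.41 and 7.09 on knockouts and 6.83, 6.91, 6.78, 6.73 and 6.83 on controls. Its groups did not overlap (1.64% of all genes in that direction), and the log2 difference was 0.46 (SE 0.10, limma adjusted p = 0.128). Insig1, which holds SREBPs in the endoplasmic reticulum, was at 0.35 (SE 0.22, adjusted p = 0.517), and Ppara, the receptor that responds to fatty acids, at -0.28 (SE 0.16, adjusted p = 0.475).

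Steps upstream and downstream of the chains gave no adjusted call either. In the list of 8 measured acyl-CoA synthetases and acyl-CoA carriers, the highest was Acsl4, which prefers arachidonate, at 0.31 (SE 0.16) and the lowest Acsl6 at -0.44 (SE 0.13, limma adjusted p = 0.195), with Acsl5, a long-chain acyl-CoA synthetase, at 0.10 (SE 0.08). Of 9 acyltransferases that place chains in phospholipids, 4 were higher at an unadjusted p under 0.05, against 8.29% of all genes (median 0.11). Mboat1 was the highest, at 1.34 (SE 0.33, adjusted p = 0.130), and Agpat3 the lowest, at -0.31 (SE 0.15). Lpcat3, which places polyunsaturated chains in phosphatidylcholine, read 12.34, 12.29, 12.35, 12.20 and 12.24 on knockouts and 12.12, 12.07, 12.10, 12.06 and 12.05 on controls. The groups did not overlap (1.64% of all genes in that direction), at a log2 difference of 0.20 (SE 0.07, limma adjusted p = 0.232). In the eicosanoid list of 13, Pla2g4a, the phospholipase that releases arachidonate, was the highest at 0.66 (SE 0.17, adjusted p = 0.149), and Hpgd, which inactivates prostaglandins, the lowest at -0.52 (SE 0.16, adjusted p = 0.189). Peroxisomal chain shortening (6 genes, median 0.01) ranged from -0.25 for the thiolase Acaa1a to 0.24 for the transporter Abcd3. Genes that use monounsaturated chains for neutral lipid (7 genes, median 0.02) ranged from -0.31 for Dgat2 to 0.15 for Agpat2. Over all 90 measured genes of these lists 0 passed the adjusted limma threshold, 15 were higher and 5 lower at an unadjusted p under 0.05 (8.29% and 5.56% of all genes), 61 were positive (46.8% of all genes) and the median difference was 0.07. The groups failed to overlap for 3 of the 90, all higher in knockouts (1.64% of all genes in that direction). Without knockout 2, 4 of the 90 passed, all higher (Cyb5r1, Hsd17b12, Mboat1 and Mbtps2), in a fit that called 452 of all genes, or 2.04%, of which 395 were higher.

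**Figure D3:**
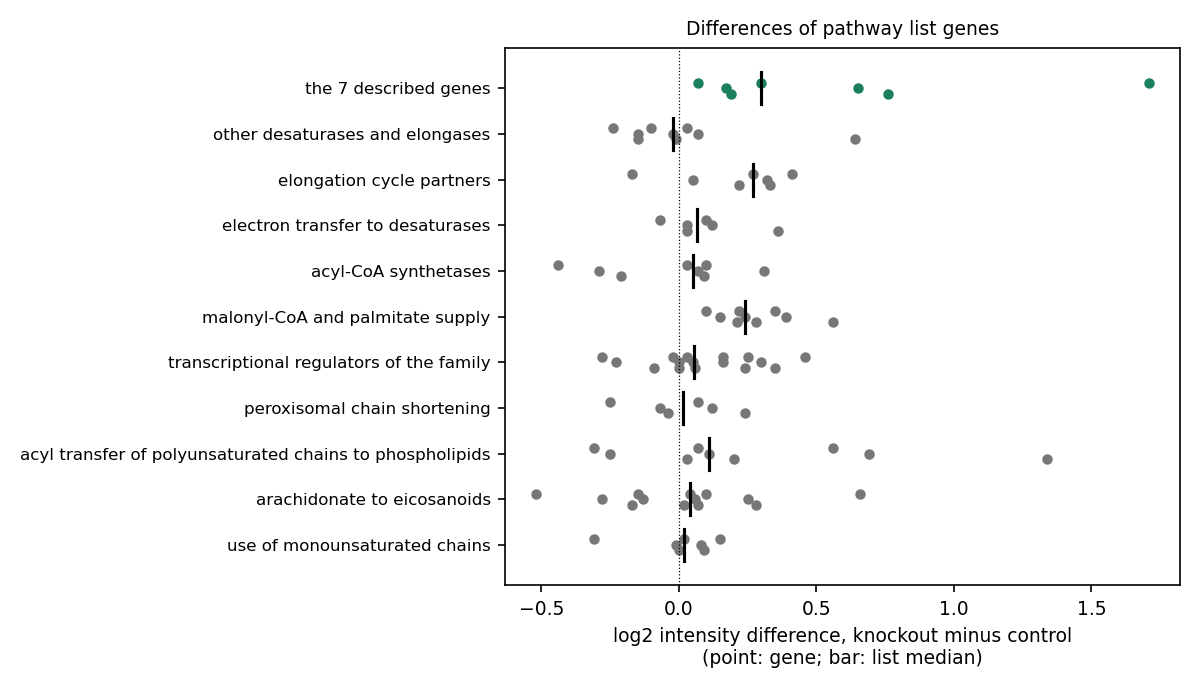
Difference in log2 intensity, knockout minus control (horizontal axis), for each measured gene of the 7 described genes and of 10 lists of pathway genes, with list medians as bars. The medians of elongation cycle partners (0.27) and of malonyl-CoA and palmitate supply (0.24) lie farthest to the right among the 10 lists.

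The 7 genes did not vary as a block among arrays of the same group. After the mean of each group was taken off, the 21 pairs had a median Pearson r of 0.31 over the 10 arrays, 12 positive and 9 negative, and 0.11 without knockout 2. Fads2 and Elovl5 were alike (r = 0.86, exact permutation p = 0.00257, adjusted 0.0486 over 21 pairs; Spearman rho = 0.73, exact permutation p = 0.0276, adjusted 0.145). Without the 2 farthest arrays, knockout 2 and control 6, their r was 0.61. Elovl1 and Elovl7 were also alike (r = 0.84, exact permutation p = 0.00549, adjusted 0.0486; rho = 0.84, exact permutation p = 0.00764, adjusted 0.0963; r = 0.80 without controls 7 and 9). Scd1 and Elovl7 ran opposite to each other (r = -0.83, exact permutation p = 0.00694, adjusted 0.0486; rho = -0.77, exact permutation p = 0.0151, adjusted 0.105; r = -0.80 without knockout 4 and control 10). Of the 21 pairs 3 passed by Pearson and none by Spearman, all tests being two-sided and run within groups. Fads1 with Fads2, its neighbour in the genome, had r = 0.67 (exact permutation p = 0.0425, adjusted 0.223; rho = 0.84, exact permutation p = 0.00917, adjusted 0.0963; r = 0.78 without controls 7 and 10), while Scd1 with Fads2 had r = -0.10 (exact permutation p = 0.759, adjusted 0.759; rho = -0.05, exact permutation p = 0.897, adjusted 0.897; r = -0.26 without knockout 4 and control 10). On knockout 2, for example, Scd1 was 0.36 above its knockout mean and Fads2 0.77 below (deviation -0.77).

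**Figure D4:**
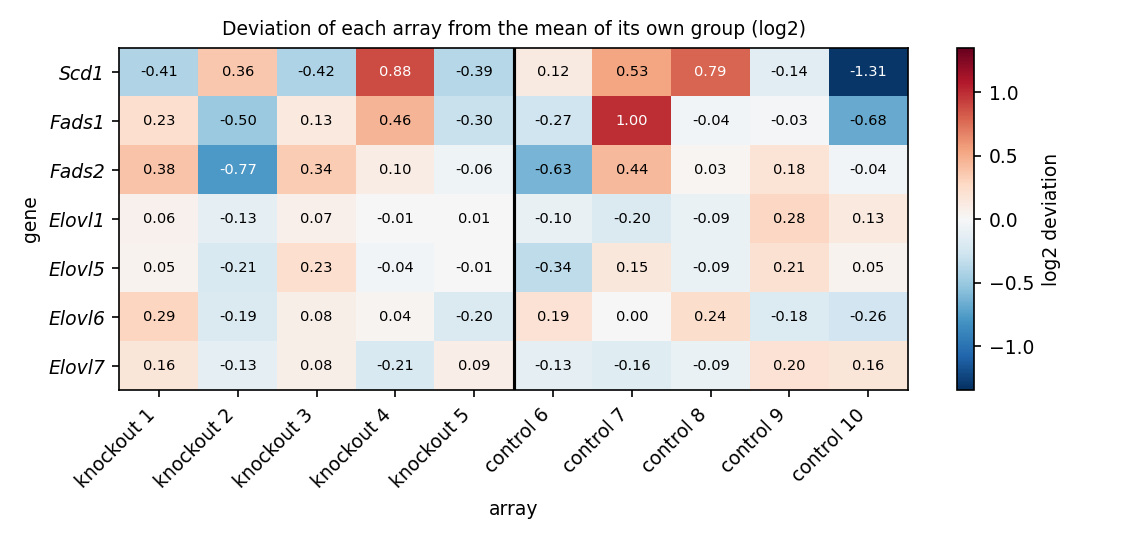
Log2 deviation of each array (columns) from the mean of its own group for the 7 genes (rows), with red above and blue below the mean. Knockout 2 and control 6 are low for Fads2 and Elovl5 (-0.77 and -0.63, -0.21 and -0.34), while Scd1 is lowest on control 10 (-1.31).

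The pieces of jejunum differed in makeup within both groups, and several of the 7 genes moved with it. Scores of 20 marker lists were set against the 7 genes in the same way, 140 relations in all, of which 8 passed by Pearson and 3 by Spearman after adjustment. Enterocyte markers, 13 of 13 measured, defined the tissue, at a score of 12.77 to 13.01 on arrays whose median log2 intensity lay between 5.77 and 5.89. That range was narrow and high on the intensity scale, so relations to this score rest on small differences. Some scores also differed between the groups without overlap. The tuft cell score was 6.09 to 6.25 in knockouts and 6.51 to 6.74 in controls. Of its markers 7 of 8 were lower at an unadjusted limma p under 0.05 (5.56% of all genes) and 0 passed after adjustment. The enteroendocrine score was 7.60 to 7.98 and 8.08 to 8.42, with 4 of 10 markers lower and 1, Sst, passing after adjustment (-1.20, limma adjusted p = 0.000348). Genes and scores come from the same RNA, so the relations describe these pieces of tissue and their cause was not tested.

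Fads2 followed the crypt stem cell score (r = 0.96, exact permutation p = 0.000486, adjusted 0.0227; rho = 0.87, exact permutation p = 0.00104, adjusted 0.0486) and ran against the enterocyte score (r = -0.92, exact permutation p = 0.000417, adjusted 0.0227; rho = -0.95, exact permutation p = 0.000556, adjusted 0.0389). Without knockout 2 and control 6, the arrays lowest in Paneth and crypt markers of their groups, these were 0.82 and -0.91. Elovl5 followed the Paneth cell score (r = 0.91 and rho = 0.92, each with an exact permutation p = 6.94e-05, the smallest that the permutations can give, adjusted 0.00972; r = 0.83 without those arrays). Of the other 5 relations that passed by Pearson, none passed by Spearman, and the one of Scd1 is given further on. Fads2 ran against the villus tip score (r = -0.94, exact permutation p = 0.00153, adjusted 0.0356; rho = -0.84, exact permutation p = 0.00715, adjusted 0.0964; r = -0.73 without those arrays). Elovl5 followed the crypt stem cell score (r = 0.88, exact permutation p = 0.00278, adjusted 0.0486; rho = 0.79, exact permutation p = 0.0215, adjusted 0.14; r = 0.62 without them) and ran against the enterocyte score (r = -0.83, exact permutation p = 0.00201, adjusted 0.0403; rho = -0.85, exact permutation p = 0.00264, adjusted 0.0736; r = -0.69). Elovl1 ran against the adipocyte score, which is limited as a measure of adipocytes (r = -0.90, exact permutation p = 0.00104, adjusted 0.0356). Its rho was -0.96 (exact permutation p = 0.0016, adjusted 0.0559), and r was -0.83 without controls 7 and 9.

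The crypt stem cell score, from all 11 listed markers, ran from 7.30 to 8.09 in knockouts and from 6.83 to 7.93 in controls. Its mean was higher in knockouts by 0.42. At an unadjusted limma p under 0.05, 5 of its markers were higher and 0 lower (8.29% and 5.56% of all genes), with 0 passing after adjustment. The cell cycle score, from 12 of 13 markers, ran from 7.56 to 8.53 and from 6.80 to 7.64. All 12 were higher in knockouts at an unadjusted limma p under 0.05 (8.29% of all genes), with 0 passing after adjustment. With the crypt stem cell score as a covariate, an alternative added once the data had been seen, the log2 difference of Fads2 was 0.19 (SE 0.11) in place of 0.65. In that fit Fads1 was at 0.36 (SE 0.25), Elovl5 at 0.11 (SE 0.09) and Scd1 at 1.73 (SE 0.46). Because the mean crypt score also differed between the groups, the fit may take out part of the group difference. This was not tested.

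Scd1 showed no such relation to the crypt stem cell score (r = -0.03, exact permutation p = 0.945, adjusted 0.979; rho = 0.07, exact permutation p = 0.881, adjusted 0.974; r = -0.20 without knockout 4 and control 10). It ran against the score of distal small intestine, from 6 of 7 listed markers (r = -0.86, exact permutation p = 0.00139, adjusted 0.0356; rho = -0.82, exact permutation p = 0.00368, adjusted 0.0736; r = -0.75 without knockout 4 and control 10). That score was highest on control 10, at 9.01, the array with the lowest Scd1, and lay between 7.25 and 8.51 in knockouts and between 7.24 and 9.01 in controls. With the distal score as a covariate (added in the same way), the Scd1 difference was 1.63 (SE 0.21). Scd1 had r = 0.78 with the proximal score (exact permutation p = 0.014, adjusted 0.0906; rho = 0.73, exact permutation p = 0.0252, adjusted 0.147). With the goblet cell score its r was -0.74 (exact permutation p = 0.0163, adjusted 0.0993; rho = -0.72, exact permutation p = 0.034, adjusted 0.176). None of the relations of Elovl7 passed adjustment. Its strongest was with the goblet cell score (r = 0.88, exact permutation p = 0.00757, adjusted 0.0757; rho = 0.82, exact permutation p = 0.00979, adjusted 0.105; r = 0.81 without knockout 4 and control 9). With the proximal small intestine score r was -0.86 (exact permutation p = 0.0122, adjusted 0.0906; rho = -0.71, exact permutation p = 0.0412, adjusted 0.183; -0.83 without those arrays), and with the distal score it had the opposite sign (r = 0.84, exact permutation p = 0.0112, adjusted 0.0906; rho = 0.71, exact permutation p = 0.0417, adjusted 0.183; r = 0.80 without them). Elovl1 had the same signs with these scores, none passing adjustment. Its r was -0.81 with the proximal score (exact permutation p = 0.0142, adjusted 0.0906) and 0.79 with the distal score (exact permutation p = 0.0324, adjusted 0.162). With the goblet cell score it was 0.68 (exact permutation p = 0.0266, adjusted 0.155). Elovl6 passed with none of the 20 scores, and its strongest relation was r = -0.57 with the distal score (exact permutation p = 0.119, adjusted 0.327; rho = -0.54, exact permutation p = 0.133, adjusted 0.379; r = -0.50 without knockout 1 and control 10).

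**Figure D5:**
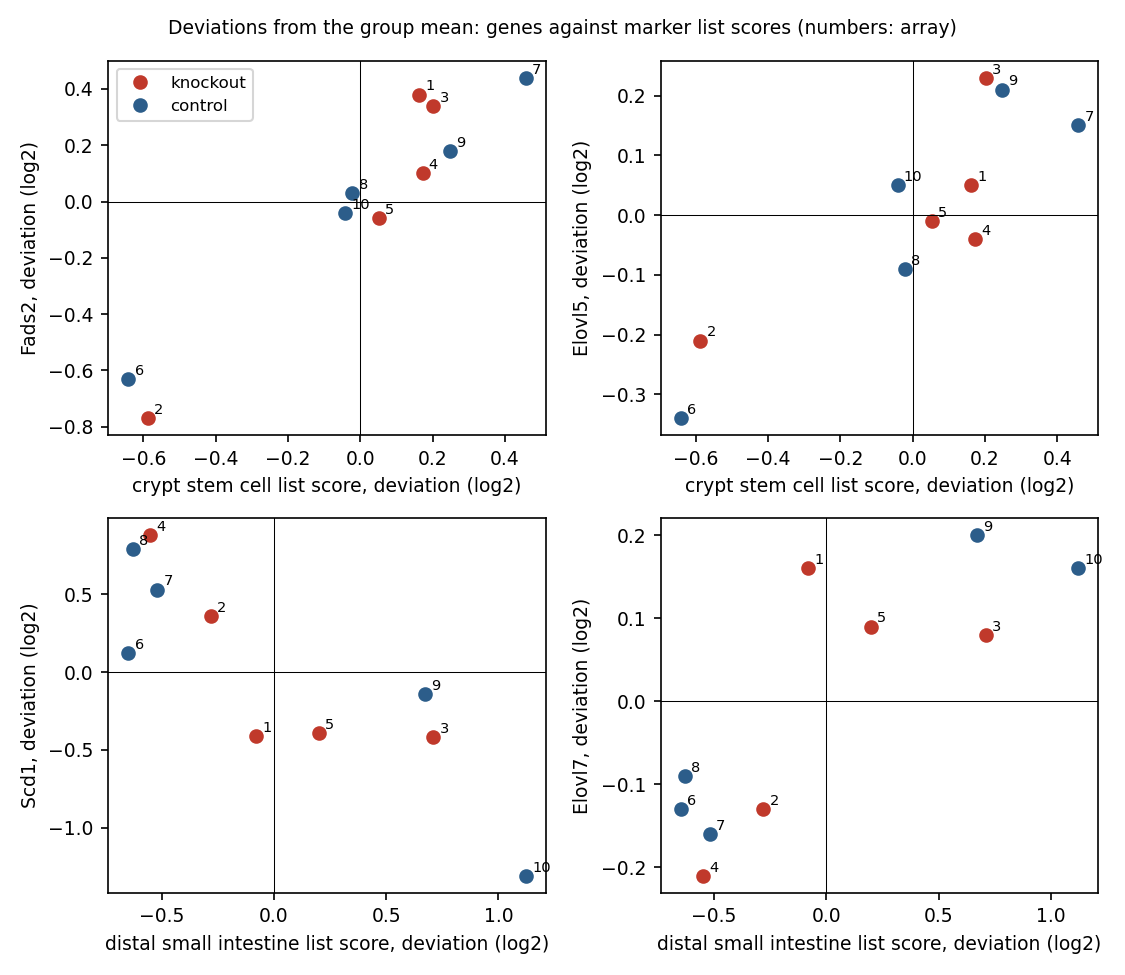
Deviation of Fads2, Elovl5, Scd1 and Elovl7 from their group means (vertical axes, log2) against the deviation of the crypt stem cell or distal small intestine score (horizontal axes, log2), knockouts in red and controls in blue with array numbers. Fads2 and Elovl5 increase with the crypt score (r = 0.96 and 0.88), while Scd1 decreases and Elovl7 increases with the distal score (r = -0.86 and 0.84, the latter not passing adjustment).

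Among 10335 genes with a mean log2 intensity of at least 6, those most like each of the 7 within groups were different for each. Fads2 was most like Agpat5, an acyltransferase of phosphatidic acid synthesis (r = 0.992 over the 10 arrays), followed by Dis3 (0.987) and Ints7 (0.985). Elovl5 was most like the ribosomal protein gene Rpl29 (0.976), the goblet cell gene Spink4 (0.973) and Eef1b2 (0.972), a translation factor. Scd1 was most like Mfsd1 (0.961), Adh5 (0.951) and Atp5l (0.938). Fads1 was most like Irf2bp2 (0.949), Cd99l2 (0.942) and Rasa3 (0.928). Elovl6 was most like Skp2 (0.936), Plekha2 (0.930) and Ifnl3 (0.902). Elovl1 was most like Prdm4 (0.972), Blvrb (0.969) and Rasd2 (0.954), and Elovl7 most like Npl (0.976), Xpnpep1 (0.972) and Tle3 (0.967). None of these lists holds another of the 7 genes. These are the highest of many correlations over 10 arrays and are given as a description only.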

How the data were processed

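The submitters' processing notes name RMA and Affymetrix Expression Console (version 1.4.1.46) as the authors' tools for these probe set values. The deposited values were intensities on a linear scale, from 1.88 to 15500.2, whose log2 values lay on steps of 0.01 (100% within 0.001), so log2 was taken first, although the planned test had assumed values already on that scale. The genome build and annotation are not given in the sources used here. Of 34472 probe sets, 23521 had 1 gene symbol in the platform annotation, 1814 several and 9137 none. Only the first kind was used, with the brightest probe set for each of 22180 genes. Groups came from sample titles.

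Knockouts were compared with controls by limma 3.58.1 in R 4.3.3 (lmFit, eBayes, two-sided), with Benjamini-Hochberg adjustment over all 22180 genes and a threshold of 0.05. Correlations used values with the group mean removed, with an exact permutation of arrays within groups (14400 orders). The fit was first tested on simulated data. Alternatives covered scaling, intensity filters, probe set choice, variance model, array weights, marker scores as covariates and arrays left out.

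The 7 genes, the gene and marker lists and the rules were chosen with earlier results of these data known. Genes named are the 7, other desaturases and elongases, Pcyt1a, a set of fixed pathway genes, the highest and lowest of each pathway list and the 3 genes most like each of the 7. Fabp4, Lpl, Plin1, Plin4, Car3, Cidec, Lep, Retn and Sst were named after their values were seen, and Adipoq was named as a defining marker.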

Additional observations from a re-analysis of the deposited data

Results flagged for a closer look

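Among 47 genes named as family or pathway members, 4 of 94 groups of 5 arrays had a lone extreme array whose gap to the next exceeded Dixon's 95% limit, where chance gives about 1 in 20. Fads6 was 6.58 on control 6 against 6.17 on the next. Hacd2 was 9.83 on knockout 1 against 9.51. Cyb5a was 9.92 on knockout 2 against 9.73. Pla2g4a was 6.86 on knockout 5, below the next knockout at 7.35. None of the 7 described desaturases and elongases met this limit in either group.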

How the results depend on the processing

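No paired analysis was possible because the knockout and control arrays share no replicate numbers. The 7 log2 differences kept their sign in all member fits under every alternative run, and 1 of them moved by more than its SD, Fads2 at 0.19 with the crypt stem cell covariate. Leaving out single arrays gave 0.02 to 0.14 for Elovl1 and 0.11 to 0.25 for Elovl6, which was 0.06 without the 3 arrays highest in smooth muscle (controls 7 and 9, knockout 1). The median difference, 0.30 as reported, ran from 0.23 to 0.35 with 1 array left out and from 0.18 to 0.41 under the other alternatives, the lowest with the crypt covariate (0.20 with the enterocyte covariate) and the highest without the smooth muscle arrays. The median r of the pairs ran from 0.11 to 0.32 and was 0.27 after median centring. The count of genes called over all genes, 6 as reported, was 2 to 452 with 1 array left out, the highest without knockout 2. It was 315 with the Paneth covariate, 326 without knockout 2 and control 6, 20 with the distal covariate, 3 with the enterocyte covariate, and 2 with median centring, with a further quantile normalisation, without the 3 smooth muscle arrays or without controls 8 and 9. Non-overlapping groups among the 7 numbered 1 to 3 with 1 array left out, 3 without the smooth muscle arrays (Scd1, Fads1 and Elovl5) and 3 without knockout 2 and control 6. Pathway list genes called, 0 as reported, numbered 0 to 4 with 1 array left out, 1 with the Paneth covariate (Mboat1) and 2 without knockout 2 and control 6 (Mboat1 and Mbtps2). The crypt and distal covariates and the fit without knockout 2 and control 6 were added after seeing the data. The cause of these changes was not tested. Overlap between groups cannot be counted in fits with a covariate.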
